A study of Mus musculus with 4 samples.

Results

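The genes described here encode 10 proteins of the BCL2 family, the regulators that decide whether the outer mitochondrial membrane is opened during apoptosis. They were chosen by name (Bcl2, Bcl2l1, Mcl1, Bax, Bak1, Bok, Bad, Bid, Bbc3 and Pmaip1), and all 10 were found among the 23420 genes of the expression table. RNA was measured in pachytene spermatocytes, the meiotic germ cells in which homologous chromosomes are fully synapsed. The cells came from the testes of wild-type C57BL/6 mice aged 23 weeks, were sorted by FACS and were kept in culture for 24 h. The control group (Ctrl) received DMSO, the solvent, and the treated group (AZ20) received 10 μM AZ20, an inhibitor of the DNA damage response kinase ATR. Each group had 2 libraries, each from 15000 cells, and by the methods each mouse supplied cells for both treatment and control. Libraries with the same replicate number were therefore taken as a pair, which neither the labels nor the methods state. The culture was at 34 °C by the labels and at 32 °C by the methods. Values are TPM, reads scaled for gene length and for the total of the library, and can be compared between genes.

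BCL2 family proteins fall into classes that bind one another. The pro-survival proteins BCL2, BCL-XL (encoded by Bcl2l1) and MCL1 hold the effectors BAX and BAK1 in check, and BOK is a further effector-like protein. When freed or activated, effectors assemble into pores in the outer mitochondrial membrane, and cytochrome c escapes into the cytosol. The BH3-only proteins, here BAD, BID, PUMA (Bbc3) and NOXA (Pmaip1), insert a short helix, the BH3 segment, into a groove of the pro-survival proteins. BAD binds BCL2 and BCL-XL, NOXA binds mainly MCL1, and PUMA binds all of them. In the testis, BAX and the pro-survival proteins are known for setting how many germ cells are removed by apoptosis in the first wave of spermatogenesis and at meiotic checkpoints.

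The BH3 segment is a sequence that these proteins have in common, and its coding stretch is shown for the 9 members in which it was searched. The protein pattern searched was leucine, any 3 residues, then glycine, alanine or serine, then aspartate, in proteins translated from the annotated coding exons (GENCODE M21, GRCm38), and each of the 9 proteins held it exactly 1 time. Each stretch has 39 bases and is written 5′ to 3′ on the coding strand, with the codons of the leucine, the small residue and the aspartate in capitals.
Bcl2, 1:106712575-106712613, minus strand: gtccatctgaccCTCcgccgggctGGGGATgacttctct
Bcl2l1, 2:152829697-152829735, minus strand: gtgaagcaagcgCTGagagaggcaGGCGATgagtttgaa
Mcl1, 3:95659424-95659462, plus strand: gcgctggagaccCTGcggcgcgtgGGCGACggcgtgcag
Bax, 7:45465997-45466035, minus strand: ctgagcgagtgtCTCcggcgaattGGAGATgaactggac
Bak1, 17:27022531-27022569, minus strand: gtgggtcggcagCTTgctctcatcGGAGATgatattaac
Bok, 1:93686645-93689170, plus strand: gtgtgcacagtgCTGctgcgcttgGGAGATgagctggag
Bad, 19:6950780-6950818, plus strand: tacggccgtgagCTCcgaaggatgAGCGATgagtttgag
Bid, 6:120897289-120897327, minus strand: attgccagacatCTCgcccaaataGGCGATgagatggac
Bbc3, 7:16313761-16313799, plus strand: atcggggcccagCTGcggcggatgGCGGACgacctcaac
The Bok stretch is joined across an intron, and the others lie within 1 exon. Over the 36 pairs of stretches, 13 to 24 of the 39 bases were identical (median 20), with Bax and Bok the closest pair. In these stretches the small residue was glycine in the pro-survival proteins, the effectors and BID, serine in BAD and alanine in PUMA. The pattern is short and is not specific to the family, since 34.0% of 21584 mouse proteins held it at least 1 time and 23.3% held it exactly 1 time. The Pmaip1 sequence is not shown.

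The whole table was tested with limma on log2(TPM + 1), AZ20 against Ctrl, over the 10316 genes with a mean TPM above 1 in either group. Genes were called at a change of 2-fold or more and a p under 0.05 after Benjamini-Hochberg adjustment. Read numbers were recovered from the TPM steps, and gave about 14321463 and 16218359 for the Ctrl libraries and about 20666566 and 18968042 for the AZ20 libraries. All 10 markers of pachytene spermatocytes were above 1 TPM in every library, with summed levels of 12111 to 12363 TPM. The summed markers of Sertoli cells (0.0984 to 0.934 TPM, Sox9, Wt1 and Fshr at 0), Leydig cells (0.866 to 2.31 TPM, 5 of 6 at 0), macrophages (0.674 to 1.47 TPM), peritubular myoid cells (2.10 to 4.44 TPM) and spermatogonia (0.655 to 2.27 TPM) were low. Round spermatid markers summed to 366 and 151 TPM in Ctrl replicates 1 and 2 and to 775 and 253 TPM in AZ20 replicates 1 and 2, so they were higher in the AZ20 library of both pairs. In bulk RNA, fewer cells of a type and less RNA per cell cannot be told apart.

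Of the 10 members, 7 passed the filter on TPM and 0 were called in either direction by limma, against 2.28% of all tested genes called higher and 0.0485% called lower. Before adjustment, 1 member had a p under 0.05 and was higher (Pmaip1), and 0 had one and were lower, against 8.03% and 1.13% of all tested genes. Voom on the recovered reads also called 0 members. With the replicate number as a block, 1 member was called higher, again Pmaip1, against 4.11% of all tested genes called higher and 0.223% called lower in that fit. The median log2 change of the 7 tested members was -0.01, and that of all tested genes was 0.07. The other 3 members, Bcl2, Bok and Bbc3, were at or near 0 in these cells and were not tested.

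**Figure D1:**
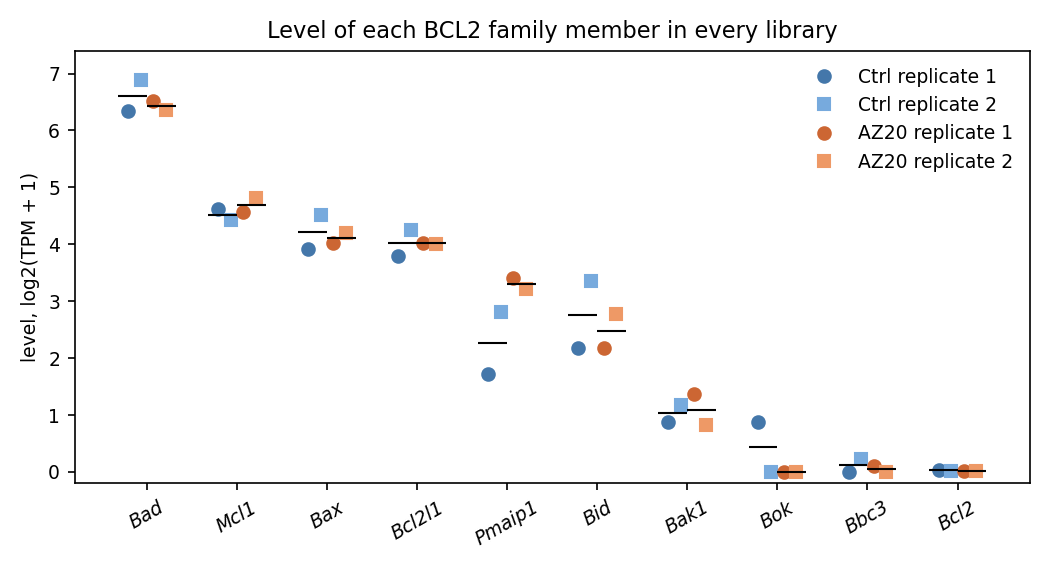
Level of the 10 BCL2 family members in each of the 4 libraries, as log2(TPM + 1), in order of mean TPM. Points are single libraries and horizontal lines are the means of 2 libraries. Bad stands above all other members, Pmaip1 is the tested member whose AZ20 and Ctrl points do not overlap, and Bok, Bbc3 and Bcl2 lie at or near 0 in most libraries.

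Among the pro-survival genes, Mcl1 and Bcl2l1 made up nearly all of the RNA, and Bcl2 itself was almost undetected. Mcl1, which encodes a short-lived protein that must be made continuously, was at 23.7 and 20.4 TPM in Ctrl and 22.7 and 27.1 TPM in AZ20 (834, 820, 1149 and 1238 reads). The groups overlapped, and the log2 change was 0.16 ± 0.22 (SE, n = 2 per group; limma adjusted p = 0.893), with a 95% interval of 0.785-fold to 1.60-fold on the TPM + 1 scale. Bcl2l1, which encodes BCL-XL, was at 12.9 and 18.1 TPM in Ctrl and 15.2 and 15.1 TPM in AZ20 (308, 494, 525 and 470 reads). Both AZ20 libraries lay between the Ctrl libraries, and the log2 change was -0.01 ± 0.24 (SE; limma adjusted p = 0.998), with a 95% interval of 0.666-fold to 1.48-fold.

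Bcl2, the founding member of the family, was at 0.0256 and 0.0112 TPM in Ctrl and 0.00889 and 0.00985 TPM in AZ20. These values stand for 2, 1, 1 and 1 reads, so no difference between the groups was detectable at this depth. For a transcript of this length, 3 reads correspond to 0.0384 and 0.0336 TPM in Ctrl and 0.0267 and 0.0295 TPM in AZ20, and all libraries were below that limit.

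Promoter sequences are shown for Bad, the member with the highest mean TPM, and for Bcl2, a member within the limit of 3 reads in every library. They are the 250 bases before the start of the gene in RefSeq (GRCm38.p6), 5′ to 3′ on the gene's strand, with each CG pair in capitals.
Bad, 19:6941611-6941860, plus strand: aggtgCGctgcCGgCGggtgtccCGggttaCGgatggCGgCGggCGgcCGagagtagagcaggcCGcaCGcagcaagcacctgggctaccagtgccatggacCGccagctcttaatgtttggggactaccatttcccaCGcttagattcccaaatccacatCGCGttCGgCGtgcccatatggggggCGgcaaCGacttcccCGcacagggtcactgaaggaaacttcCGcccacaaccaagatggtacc
Bcl2, 1:106714291-106714540, minus strand: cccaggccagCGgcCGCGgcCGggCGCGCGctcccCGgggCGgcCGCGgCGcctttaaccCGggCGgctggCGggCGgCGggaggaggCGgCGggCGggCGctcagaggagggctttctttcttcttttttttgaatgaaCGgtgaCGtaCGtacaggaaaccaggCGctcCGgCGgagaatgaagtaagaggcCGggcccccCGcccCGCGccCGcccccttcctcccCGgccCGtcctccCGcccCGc
The Bad stretch held 21 CG pairs and the Bcl2 stretch 36, and the stretch before a second listed start of Bad, not shown, held 18. The median was 6 over 32851 promoters of the table and 16 over the 9147 promoters of genes with a mean TPM above 1. Bcl2, almost undetected as RNA, thus had more CG pairs than the median promoter of expressed genes. This is a description of the sequence, and methylation was not measured in these libraries.

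Of the effector genes, Bax carried most of the RNA. Bax was at 14.03 and 21.8 TPM in Ctrl and 15.3 and 17.4 TPM in AZ20 (123, 219, 193 and 198 reads). Both AZ20 values lay between the Ctrl values, and the log2 change was -0.10 ± 0.27 (SE, n = 2 per group; limma adjusted p = 0.957), with a 95% interval of 0.601-fold to 1.45-fold.

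Bak1, which encodes the effector that resides permanently in the mitochondrial membrane, was at 0.842 and 1.26 TPM in Ctrl and 1.58 and 0.761 TPM in AZ20 (17, 29, 46 and 20 reads). The AZ20 libraries were the highest and the lowest of the 4, and the log2 change was 0.06 ± 0.35 (SE; limma adjusted p = 0.982). Its direction is not fixed, since with quantile normalization the log2 change was -0.29. Bak1 may also be uncertain because in the GENCODE M21 annotation 614 of its 2407 exon bases overlap exons of Ggnbp1 on the opposite strand. Reads were counted on the UCSC refGene annotation, and whether the exons counted there overlap was not examined. Ggnbp1 was at 192 to 243 TPM, and the sources used here do not state whether strand was used in counting.

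Bok was listed at 0.830 TPM in Ctrl replicate 1 (12 reads) and at 0 in the other 3 libraries. A count of 0 allows up to 3 reads, which is 0.182 TPM in Ctrl replicate 2 and 0.144 and 0.160 TPM in AZ20. The Bok signal therefore came from a single library, and the Ctrl libraries differed as much from each other as from AZ20.

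Bad had a higher TPM than the other 9 members together in each library. It was at 79.9 and 117 TPM in Ctrl and 90.7 and 80.6 TPM in AZ20 (585, 980, 957 and 768 reads). In reads, which are not scaled for gene length, Mcl1 was above Bad in Ctrl replicate 1 and in both AZ20 libraries. In those libraries the lead of Bad over Mcl1 thus rests on the gene lengths used for scaling. BAD is the BH3-only protein whose binding to BCL-XL is switched off by phosphorylation, a step that RNA levels do not report. The groups overlapped, and the log2 change was -0.18 ± 0.23 (SE, n = 2 per group; limma adjusted p = 0.890), with a 95% interval of 0.610-fold to 1.29-fold. In GENCODE M21 the Bad exons overlap Gpr137 on the opposite strand over 524 of 2558 bases. Gpr137 was at 5.52 to 7.71 TPM, far below Bad.

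Bid, whose protein is cut by caspase-8 to link death receptors to mitochondria, was at 3.51 and 9.17 TPM in Ctrl and 3.53 and 5.84 TPM in AZ20 (67, 200, 97 and 145 reads). In both groups replicate 1 was below replicate 2, and the groups overlapped. The log2 change was -0.28 ± 0.43 (SE; limma adjusted p = 0.914). Its 95% interval, 0.404-fold to 1.67-fold, was the widest of the 7 tested members on the log2 scale. In GENCODE M21, Bid shares 628 of 3550 exon bases with Bcl2l13 on the opposite strand (2.85 to 4.22 TPM), a level close to its own. The values of Bid may therefore be uncertain in the same way as those of Bak1.

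Bbc3, which encodes PUMA, a direct target of p53, was at 0 and 0.175 TPM in Ctrl and 0.0696 and 0 TPM in AZ20. These are 0, 2, 1 and 0 reads, at or below the limit of 3 reads in every library, so no change could be detected at this depth.

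Pmaip1, which encodes NOXA, the BH3-only protein that binds MCL1, was at 2.32 and 6.04 TPM in Ctrl and 9.61 and 8.24 TPM in AZ20 (62, 185, 371 and 287 reads). Both AZ20 libraries were above both Ctrl libraries, and Pmaip1 was the only one of the 7 tested members of which this held. The same order of libraries was met by 26.4% of all tested genes, and the opposite order, which 0 of the 7 showed, by 11.7%. Mean TPM was 4.18 ± 2.64 in Ctrl and 8.93 ± 0.971 in AZ20 (SD, n = 2 per group), a ratio of 2.14. The log2 change was 1.04 ± 0.38 (SE), with a 95% interval of 1.09-fold to 3.85-fold, an unadjusted p of 0.0309 and a limma adjusted p of 0.462, so Pmaip1 was not called. Of the 10316 tested genes, 460 had a log2 change at least as high.

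The result for Pmaip1 depended on how the pairing was handled. Within pairs, log2(TPM + 1) was 1.68 higher with AZ20 in replicate 1 and 0.39 higher in replicate 2. With the replicate number as a block, the log2 change was the same and the standard error was 0.30. The limma adjusted p was then 0.0308, so that Pmaip1 was called higher. That standard error draws on the variances of all tested genes, not on the pairs of Pmaip1 alone, whose changes lay far apart. With the recovered reads, the voom adjusted p was 0.382, and 0.237 with the replicate block. Over all alternatives tried, the adjusted p of Pmaip1 ran from 0.0308 to 0.837. Its size rested on Ctrl replicate 1, the lowest library: without Ctrl replicate 1 the log2 change was 0.49, and without Ctrl replicate 2 it was 1.58. The round spermatid markers given above were also higher with AZ20 in both pairs, and their part in the Pmaip1 values was not tested.

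**Figure D2:**
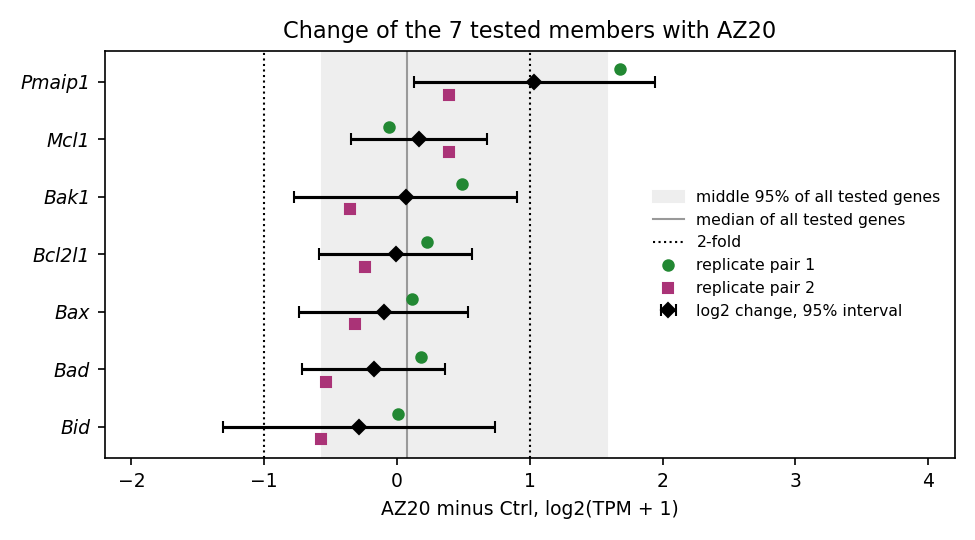
Log2 change of the 7 tested members, AZ20 minus Ctrl on the log2(TPM + 1) scale. Diamonds with bars are the limma estimate with its 95% interval, circles and squares are the changes within replicate pairs 1 and 2, and the grey band holds the middle 95% of all tested genes, from -0.57 to 1.58. The interval of Pmaip1 lies above 0, and the pairs of the other 6 members lie on opposite sides of 0.

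The 2 replicate pairs gave opposite signs for 6 of the 7 tested members, and for 4559 of the 10316 tested genes. Mcl1 was 0.06 lower with AZ20 in pair 1 and 0.39 higher in pair 2 on the log2(TPM + 1) scale. Bcl2l1, Bax, Bak1, Bad and Bid went the other way, with changes of 0.01 to 0.49 in pair 1 and of -0.24 to -0.57 in pair 2. Pmaip1 was the only tested member higher in both pairs, and 36.1% of all tested genes were, while 0 members and 19.4% of genes were lower in both. In Ctrl replicate 2, Bcl2l1, Bax, Bad and Bid were each at their highest of the 4 libraries.

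In the order of mean TPM in Ctrl, Bad (98.4 ± 26.3; SD, n = 2) was followed by Mcl1 (22.04 ± 2.35), Bax (17.9 ± 5.53) and Bcl2l1 (15.5 ± 3.67). Bad was separated from Mcl1, whereas Mcl1 overlapped with Bax, and Bax with Bcl2l1. Bid (6.34 ± 4.0), Pmaip1 (4.18 ± 2.64) and Bak1 (1.05 ± 0.293) followed, and Bid and Pmaip1 overlapped. Bok, Bbc3 and Bcl2 came last with overlapping neighbours. The order in AZ20 was the same for the first 4 genes, Bad (85.6 ± 7.10), Mcl1 (24.9 ± 3.11), Bax (16.3 ± 1.48) and Bcl2l1 (15.2 ± 0.0869), and in this group no neighbours among them overlapped. Bax and Bcl2l1 nearly touched, with the lowest Bax library at 15.27 TPM and the highest Bcl2l1 library at 15.23 TPM. Pmaip1 (8.93 ± 0.971) stood above Bid (4.69 ± 1.64) in AZ20, with no overlap of their libraries. That switch of places was not tested.

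The summed RNA of the 10 members was 138 and 194 TPM in Ctrl and 159 and 155 TPM in AZ20. Bad made up 59.1% ± 1.74 of it in Ctrl and 54.6% ± 3.64 in AZ20 (SD, n = 2 per group). The share of Pmaip1 was 2.40% ± 1.02 in Ctrl and 5.69% ± 0.526 in AZ20. The share of Bcl2l1 was 9.32% ± 0.0128 in Ctrl and 9.67% ± 0.103 in AZ20, and that of Bax was 10.7% ± 0.776 and 10.4% ± 1.11. Mcl1 contributed 13.8% ± 4.72 in Ctrl and 15.9% ± 2.24 in AZ20. Bad was the main part of the summed TPM in every library, and no share was tested.

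The ratio of pro-survival to pro-apoptotic RNA (Bcl2, Bcl2l1 and Mcl1 over the other 7 members) was 0.361 and 0.247 in Ctrl and 0.314 and 0.374 in AZ20. The group means were 0.304 ± 0.0804 in Ctrl and 0.344 ± 0.0423 in AZ20 (SD, n = 2 per group), and their difference was smaller than the spread between the Ctrl libraries. The ratio depends on Bad and Mcl1, and without them it was 0.534 ± 0.0917 in Ctrl and 0.488 ± 0.0265 in AZ20, the reverse order. The ratio of Mcl1 to Pmaip1, the pair whose proteins bind each other, was 10.2 and 3.37 in Ctrl and 2.36 and 3.28 in AZ20. Both AZ20 values were below both Ctrl values, but Ctrl replicate 2 and AZ20 replicate 2 were nearly equal.

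**Figure D3:**
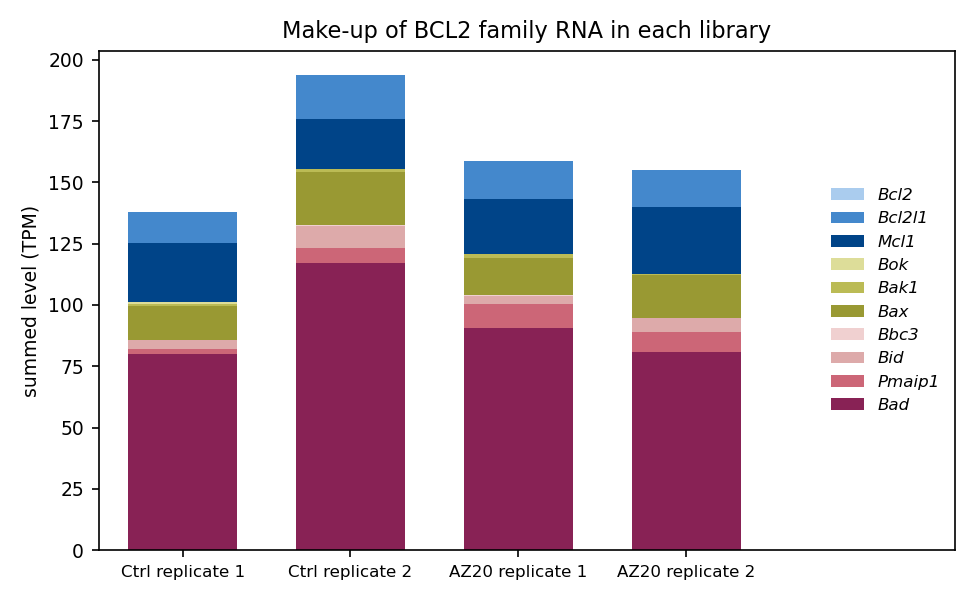
Summed level of the BCL2 family members in TPM in each library, stacked by gene on a linear axis from 0, with pro-survival genes at the top, effectors in the middle and BH3-only genes at the bottom. Bad is the largest part of every bar, and the totals run from 138 to 194 TPM, both in Ctrl.

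The genes around the family were followed in 7 lists with 65 genes, of which 38 passed the filter on TPM. Limma called 2 of the 38 higher and 0 lower, against 2.28% and 0.0485% of all tested genes. Both, Bcap31 and Usp9x, lie on the X chromosome, which is transcriptionally silenced in pachytene spermatocytes of males. Of the 235 genes called higher over the whole table, 9 were placed on autosomes. Before adjustment, 12 had a p under 0.05 and were higher, and 0 were lower, against 8.03% and 1.13% of all tested genes. In all 5 tested X-linked genes both AZ20 libraries were above both Ctrl libraries, an order met by 26.4% of all tested genes and by 91.8% of the 317 tested X-linked genes. Of the 33 other genes, 0 were called and 7 were higher at an unadjusted p under 0.05, against 5.15% of tested autosomal genes (1.19% lower). With the replicate block 5 of the 38 were called higher, against 4.11% of all tested genes. They were Bcap31, Usp9x, Xiap, Aifm1 and Htra2, of which Htra2 is not X-linked. Of the 9279 tested genes placed on autosomes, 0.097% were called higher and 0.0539% lower without the block, and 1.34% higher and 0.237% lower with it. The median log2 change was 0.21 over the 38 genes and 0.17 over the 33 that are not X-linked, and that of all tested autosomal genes was 0.06.

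Other BCL2 family genes did not pass the test in either direction (0 of 4 tested, 14 listed). The most abundant was Bcl2l12, at 61.8 and 68.9 TPM in Ctrl and 83.1 and 71.1 TPM in AZ20, with a log2 change of 0.23 (limma adjusted p = 0.815). Bcl2l15 had the lowest change, -0.14, at 0.473 to 1.58 TPM. Among the BH3-only genes of this list, Bcl2l11 (BIM), Bmf and Bik were listed at 0 in every library, as were the pro-survival genes Bcl2l10, Bcl2a1b and Bcl2a1c. These 6 were named after their values were seen. Bcl2a1b, Bcl2a1c and their close paralogs share sequence, and unique alignment can leave such copies without reads.

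Genes for partners of the BCL2 family at membranes differed widely in level. The channel gene Vdac1, named after its values were seen, was at 0.112 to 0.777 TPM and did not pass the filter on TPM. Of 9 tested membrane partners (11 listed), 1 was called higher, Bcap31, and 0 lower. Bcap31, an endoplasmic reticulum protein that caspase-8 cuts, was at 1.06 and 0.643 TPM in Ctrl and 133 and 135 TPM in AZ20 (13, 9, 2348 and 2143 reads). Its log2 change was 6.19 ± 0.23 (SE, n = 2 per group; limma adjusted p = 3.81e-05). Vdac3, a channel of the outer mitochondrial membrane, had the highest mean over the 4 libraries, at 1418 and 1595 TPM in Ctrl and 1339 and 1269 TPM in AZ20, though the related channel gene Vdac2, named after its values were seen, overlapped with it in both groups (1211 to 1565 TPM). Vdac3 also had the lowest change, -0.21 (limma adjusted p = 0.748). Bnip3, a mitophagy receptor related to the BH3-only proteins and named after its values were seen, was at 33.0 and 40.6 TPM in Ctrl and 65.6 and 63.8 TPM in AZ20. Both AZ20 libraries were above both Ctrl libraries, an order met by 26.4% of all tested genes. The log2 change of 0.81 was below 2-fold, and Bnip3 was called in neither fit (limma adjusted p = 0.152 without and 0.0352 with the replicate block).

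Downstream of the mitochondria, 0 of 8 tested genes of the apoptosome and caspase list (12 listed) were called in either direction. Cyct, the cytochrome c of the testis, was at 1073 to 1220 TPM, and Cycs, the cytochrome c of other tissues, at 9.27 to 24.96 TPM. Diablo, whose protein relieves the inhibition of caspases, was at 656 to 712 TPM and had the lowest change of the list, -0.06 (limma adjusted p = 0.953). Cycs was named after its values were seen.

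Aifm1, an X-linked gene for a mitochondrial flavoprotein, was without reads in Ctrl and had 53 and 49 in AZ20, at least 13.2-fold higher against 3 reads per library. Its limma adjusted p was 0.110 without and 0.0179 with the replicate block. Htra2, which encodes a mitochondrial serine protease and was named because the block changed its call, was at 2.41 and 3.27 TPM in Ctrl and 8.02 and 7.56 TPM in AZ20. Its log2 change was 1.20 ± 0.26 (SE; limma adjusted p = 0.10 without and 0.00587 with the replicate block). On the recovered reads it was not called, with a voom adjusted p of 0.279 without and 0.138 with the block. Both AZ20 libraries of Htra2 were above both Ctrl libraries.

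The inhibitor of apoptosis list had 4 tested genes (5 listed), of which 0 were called. Xiap, the X-linked inhibitor of caspases, was at 0 and 1 reads in Ctrl against 226 and 177 reads in AZ20, or 2.37 and 2.06 TPM in AZ20. The limma adjusted p was 0.0579 without and 0.00369 with the replicate block, and the voom adjusted p was 0.0151. Birc5, which encodes survivin, a subunit of the chromosomal passenger complex, was the most abundant, at 48.2 to 66.8 TPM. It had the lowest change of this list, 0.01, whose sign turned with quantile normalization and with voom.

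The turnover list holds 2 X-linked genes whose proteins act on MCL1 in opposite ways. Usp9x encodes a deubiquitinase that stabilises MCL1, and its Ctrl libraries had 0 and 1 reads and its AZ20 libraries 688 and 650, or 3.98 and 4.16 TPM in AZ20. It was called higher, with a log2 change of 2.34 ± 0.30 (SE, n = 2 per group; limma adjusted p = 0.00769). Huwe1 encodes a ubiquitin ligase that marks MCL1 for degradation, and its Ctrl libraries had 0 and 2 reads and its AZ20 libraries 237 and 238, or 1.11 and 1.24 TPM in AZ20. It was not called by limma (adjusted p = 0.317), also not with the block (0.143), whereas voom called it (adjusted p = 0.0135). At such low TPM the log2(TPM + 1) scale understates the change. Fbxw7, a further ligase subunit for MCL1 on chromosome 3, was at 17.6 to 22.3 TPM with a log2 change of 0.17 (limma adjusted p = 0.887). Of the 4 tested genes of this list (5 listed), all 4 were higher in both AZ20 libraries than in both Ctrl libraries. That order was met by 26.4% of all tested genes and by 91.8% of tested X-linked genes, which include Usp9x and Huwe1. Fbxw7 met it narrowly, with 19.5 TPM in Ctrl replicate 1 and 19.7 TPM in AZ20 replicate 1. The RNA of Mcl1 itself overlapped between the groups.

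The death receptor list had 4 tested genes (9 listed) and 0 were called. Fas and Fasl were listed at 0 in every library and were named after their values were seen. Fadd, the adaptor of death receptors, had the highest mean over the 4 libraries, at 2.66 to 6.61 TPM, a range that overlapped with that of Cflar (2.79 to 5.35 TPM), named after its values were seen. Ripk1 had the lowest change, -0.43 (limma adjusted p = 0.771). Casp8, on chromosome 1, was without reads in Ctrl and had 18 and 83 in AZ20, at least 13.6-fold higher against 3 reads per library. The AZ20 libraries differed widely, at 0.446 and 2.28 TPM, and without AZ20 replicate 2 the bound was 4.44-fold. The limma adjusted p was 0.536 without and 0.155 with the replicate block, and the voom adjusted p was 0.243 without and 0.0221 with it, so that only voom with the block called Casp8 higher among these 4 fits.

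Transcription of Pmaip1 and Bbc3 is driven by p53 family members, and 0 of the 5 tested genes of that list (9 listed) were called. Trp63, which encodes the p63 protein that guards germ cells, was at 4.88 and 3.25 TPM in Ctrl and 3.03 and 2.32 TPM in AZ20. It had the lowest change of the list, -0.45 ± 0.30 (SE; limma adjusted p = 0.763). Mdm2, a p53 target that encodes its ubiquitin ligase, was at 68.2 and 68.0 TPM in Ctrl and 92.9 and 116 TPM in AZ20. It had the highest change, 0.60 ± 0.19 (SE; limma adjusted p = 0.341 without and 0.159 with the replicate block). Both AZ20 libraries of Mdm2 were above both Ctrl libraries, which held for 26.4% of all tested genes, and those of Trp63 were below both, which held for 11.7%. Trp53, which encodes p53 and was named after its values were seen, was at 1.43 and 3.85 TPM in Ctrl and 3.17 and 5.39 TPM in AZ20, so the groups overlapped (limma adjusted p = 0.777). Ddit3, which encodes the stress transcription factor CHOP, was the most abundant, at 417 to 524 TPM, with a log2 change of 0.18 (limma adjusted p = 0.827) and both AZ20 libraries above both Ctrl libraries.

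**Figure D4:**
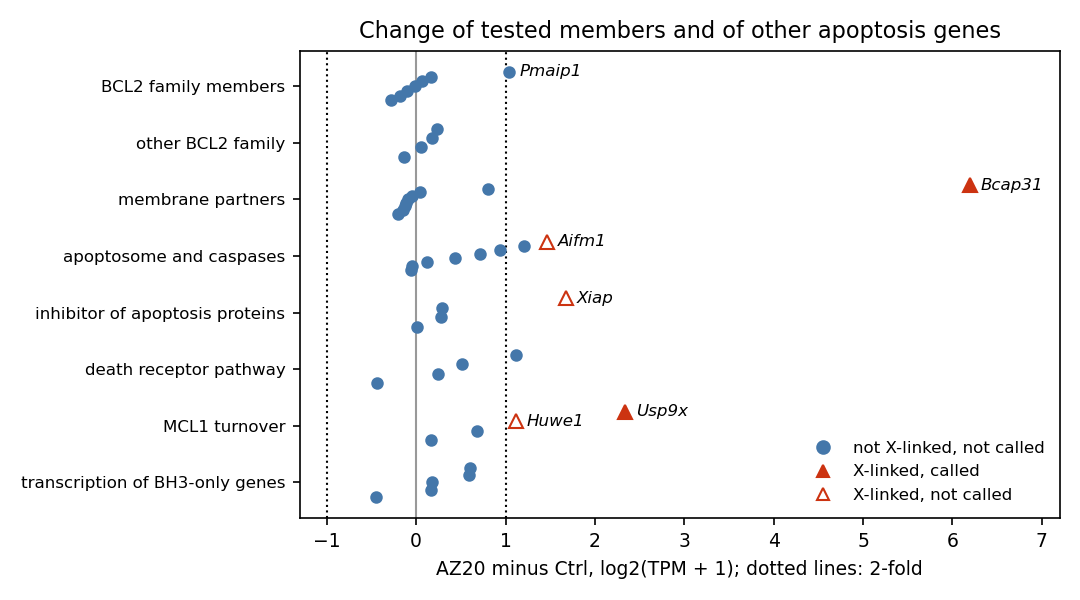
Log2 change, AZ20 minus Ctrl on the log2(TPM + 1) scale, of the 7 tested BCL2 family members and of the 38 tested genes of the other lists, 1 point per gene. Triangles are X-linked genes, filled where limma called them without the replicate block. The X-linked genes lie at 1.11 or above, and of the other genes Pmaip1, Htra2 and Casp8 lie above the 2-fold line without being called in this fit.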

How the data were processed

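RNA-seq was done on 2 Ctrl and 2 AZ20 libraries. Paired reads of 150 bp were trimmed by the authors with Trimmomatic 0.39 and aligned uniquely to GRCm38 with STAR 2.5.4b. They were counted with featureCounts 2.0.1 on the UCSC refGene annotation, per the study's methods and the submitters' processing notes. The authors deposited TPM, which sum to 1000000 in each library, and no columns of other samples were in the table (0). Rows without a symbol (92) were left out. The authors' own test used DESeq2 on counts.

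Groups came from the sample labels. Log2(TPM + 1) was fitted with limma 3.58.1 (R 4.3.3) with a variance trend, over genes whose mean TPM exceeded 1 in either group. A call needed a 2-fold change and an adjusted p under 0.05. The fit was tested on simulated data. With 2 against 2 libraries an exact permutation test cannot go below a two-sided p of 0.333, so single values carry no such test. Reads were recovered by finding the gene length that makes all 4 values whole. They were whole for 16857 of 16857 genes within 0.02, and for 2321 genes a whole factor was set from the annotated length. Depth was at least 13556527, 15393398, 19650081 and 18014539 reads for Ctrl 1, Ctrl 2, AZ20 1 and AZ20 2. The limit of 3 reads for a count of 0 covers counting error only. Fold changes on the log2(TPM + 1) scale are understated for low genes. Other values used Python 3.11.15, pandas 2.3.3 and numpy 2.4.6.

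Replicate numbers were taken to pair the libraries, since the methods split the cells of each mouse. Neither the methods nor the labels state which libraries share a mouse. Deviations from the group means of paired libraries correlated at 0.229 over 10316 genes. The block was kept as an alternative, although the cells of each mouse were split, because the methods name no block for the authors' own test. The members and the gene lists were chosen with earlier results of these data known. All members were named, and of each list the genes called, X-linked and tested, most abundant, or with the highest or lowest change. Others are marked as chosen later or were given as examples. Alternatives were other pseudocounts, filters, quantile normalization, no trend, no fold threshold, the block, voom and leaving out each library.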

Additional observations from a re-analysis of the deposited data

How the results depend on the processing

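With 2 libraries per group, a call rests on each library: leaving out 1 library gave 0 to 184 genes called higher over the whole table, against 235 with all, and 0 to 1 called lower, against 5. Without either AZ20 library, 0 genes were called by limma. The count of members called higher was 0, and 1 with the replicate block, where the pairing of libraries enters the fit. It was 0 under every other alternative run, leaving out each library included. Other pathway genes called higher numbered 2, and 4 with no filter on TPM, 1 with a mean TPM above 5, 5 with the replicate block, 4 with no trend, 4 with voom, 6 with voom and the replicate block together (chosen after seeing the data) and 0 to 1 with 1 library left out. Over the whole table the replicate block gave 424 called higher and 23 lower, and the count called lower was 1 with no filter, 1 with voom and 2 with voom and the block. In limma the block changed the call of Pmaip1, Htra2, Aifm1 and Xiap, and of no other gene named here, and in voom it changed those of Aifm1 and Casp8.

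The ratio of pro-survival to pro-apoptotic RNA without the most abundant member of each side was 0.534 in Ctrl and 0.488 in AZ20. With 1 library left out the ratio over all members was 0.247 to 0.361 in Ctrl and 0.314 to 0.374 in AZ20. Signs turned for Bak1 (-0.29 with quantile normalization) and Birc5 (-0.080 with quantile normalization, -0.011 with voom and -0.0094 with voom and the block). Quantile normalization moved the median of all genes by -0.14. With 1 library left out, log2 changes ran from -0.24 to 0.22 for Bcl2l1, -0.40 to 0.20 for Bax, -0.21 to 0.34 for Bak1, -0.45 to 0.10 for Bad, -0.87 to 0.30 for Bid, -0.54 to 0.27 for Bcl2l15 and -0.22 to 0.24 for Birc5. The cause was not tested. Of 97 values of members under the alternatives, 88 kept their direction and side of the threshold, and 8 changed sign. Of 243 values of the other genes named by rule (called, X-linked, most abundant, or with the highest or lowest change) 218 did, and 7 changed sign. Genes named for other reasons, Htra2 among them, were not counted. Depth limits Bcl2, Bbc3 and Bok, where 12 reads or fewer stood behind each library.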
